A study of Mus musculus with 4 samples.

Results

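A set of 10 genes of the Wnt family of secreted signals, Wnt2, Wnt4, Wnt5a, Wnt5b, Wnt6, Wnt7a, Wnt7b, Wnt10b, Wnt11 and Wnt16, was followed through luminal epithelium and stroma of the mouse uterus. They were chosen by gene name, 10 of the 23235 genes in each of 2 deposited tables, and the other 9 Wnt ligands of the mouse were set beside them. The luminal epithelium lines the uterine cavity and the stroma is the connective tissue beneath it, and both were captured by laser microdissection on day 4 of a pseudopregnancy, induced by a vasectomized male and so without embryos. There were 4 libraries, 1 for each group: luminal epithelium labelled knockout (Msx1d/d/Msx2d/d), luminal epithelium labelled control (Msx1f/f/Msx2f/f), stroma labelled knockout and stroma labelled control. The design names 1 knockout and 1 control mouse, with the homeobox genes Msx1 and Msx2 deleted in the uterus of the knockout and floxed in the control. The driver of the deletion and the age of the mice are not given in the sources used here, nor is it said that the 2 compartments of a genotype share a uterus. No value has a replicate, so a difference between genotypes has no spread between mice to be read against, and higher and lower describe these libraries only.

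Wnt ligands are secreted glycoproteins that act over short distances. They bind Frizzled receptors, either together with Lrp5 or Lrp6, which stabilizes beta-catenin, or with co-receptors such as Ror2, which acts through cell shape and polarity without beta-catenin. In the mouse uterus, Wnt7a from the epithelium and Wnt5a are known for their part in forming the uterine glands, and Wnt4 and Wnt6 for their part in the decidual change of the stroma after implantation.

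Levels are RPKM, which corrects reads for the length of the transcript and the size of the library, so ligands of unequal length can be compared within a library. The estimated depth was 94.3 M reads for luminal epithelium labelled knockout, 6.42 M for its control, 63.0 M for stroma labelled knockout and 44.4 M for its control, so the epithelial control was 14.7 times shallower than its partner. General epithelial markers summed to 526 and 460 RPKM in knockout and control luminal epithelium and to 0.565 and 1.84 RPKM in knockout and control stroma. Stromal markers summed to 11.1 and 19.8 RPKM in knockout and control luminal epithelium and to 715 and 447 RPKM in knockout and control stroma. All 12 epithelial and all 14 stromal markers lay on the side of their own compartment in both genotypes. Msx1 was at 13.6 RPKM in luminal epithelium labelled knockout and 23.2 RPKM in its control, and Msx2 at 2.06 and 1.31 RPKM, which for Msx2 goes against the label. The deleted exons are not named by the labels, so every direction below rests on the labels, and knockout below means the library labelled knockout.

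The start regions of Wnt7a and Wnt11, the ligands with the highest levels among those nearly confined to luminal epithelium in these libraries, are shown with that of Wnt16, a ligand higher in stroma. Each runs 5′ to 3′ from 250 bases before to 50 bases after the annotated RefSeq start, in build GRCm38.p6, at chr6:91411304-91411603 on the minus strand for Wnt7a, chr7:98838595-98838894 on the plus strand for Wnt11 and chr6:22287977-22288276 on the plus strand for Wnt16. Capitals mark GGGCGG and its reverse complement CCGCCC, the core of Sp1 sites.
Wnt7a: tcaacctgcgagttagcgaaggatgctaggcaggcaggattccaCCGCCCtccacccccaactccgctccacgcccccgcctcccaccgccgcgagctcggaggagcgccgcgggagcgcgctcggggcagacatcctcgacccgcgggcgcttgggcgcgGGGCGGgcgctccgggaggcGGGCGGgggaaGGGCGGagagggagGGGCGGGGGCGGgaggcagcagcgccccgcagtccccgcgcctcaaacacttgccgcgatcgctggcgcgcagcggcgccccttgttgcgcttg
Wnt11: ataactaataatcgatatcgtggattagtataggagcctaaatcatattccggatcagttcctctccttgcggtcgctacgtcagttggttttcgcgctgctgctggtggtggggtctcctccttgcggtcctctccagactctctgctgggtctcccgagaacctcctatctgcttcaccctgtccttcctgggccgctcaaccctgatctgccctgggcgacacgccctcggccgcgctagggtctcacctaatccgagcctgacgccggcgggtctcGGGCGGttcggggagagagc
Wnt16: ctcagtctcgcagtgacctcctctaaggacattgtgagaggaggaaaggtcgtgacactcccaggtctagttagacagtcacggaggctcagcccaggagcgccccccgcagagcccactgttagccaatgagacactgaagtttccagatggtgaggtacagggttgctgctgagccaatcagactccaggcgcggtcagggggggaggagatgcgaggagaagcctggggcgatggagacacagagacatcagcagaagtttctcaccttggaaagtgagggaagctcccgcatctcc

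Start regions were matched by symbol for 8 of the 10 ligands, all but Wnt5a and Wnt7b, about which the counts below say nothing. For ligands with several starts, the one whose distance to the gene end was closest to the deposited locus was taken. The capital motif occurred 6 times in the Wnt7a window, 1 time in that of Wnt11 and not in that of Wnt16, with overlapping matches counted, and it was present in 6 of the 8 windows against 35.7% of 32851 mouse windows. CG dinucleotides numbered 42 in the Wnt7a window, 23 in that of Wnt11 and 10 in that of Wnt16, against a median of 7 over all windows, and 97.0%, 78.5% and 56.5% of windows had fewer. CAATTA or its reverse complement TAATTG, a core letter pattern of homeodomain sites, was in none of the 8 windows and in 8.0% of all windows. TATAAA on the given strand was likewise in none of the 8 and in 8.32% of all. These are matches of letters in short windows and say nothing of binding.

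Of the 10 ligands, Wnt5a alone reached 1 RPKM in both compartments, while Wnt4 was low in both. Wnt11 and Wnt7a were high in luminal epithelium alone among these captures, and Wnt16 was the next ligand of stroma. In luminal epithelium 3 of the 10 ligands reached 1 RPKM in each genotype, and in stroma 2 did. Of all 23235 genes, 7736 reached a mean of 1 RPKM over the epithelial pair and 7723 over the stromal pair. The 10 ligands summed to 31.0 RPKM in knockout and 29.8 RPKM in control luminal epithelium, and to 14.3 RPKM in knockout and 7.60 RPKM in control stroma. Wnt5a made up 47.3% of the epithelial sum in the knockout and 35.1% in the control, and Wnt11 30.5% and 48.1%. In stroma Wnt5a made up 84.1% of the sum in the knockout and 70.2% in the control, and Wnt16 9.88% and 16.0%. The ratio of the sums, knockout over control, was 1.04 in luminal epithelium, a direction that turned under every rescaling that gave new sums, the lowest being 0.874, and 1.88 in stroma, where rescaling gave 1.76 to 1.798.

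**Figure D1:**
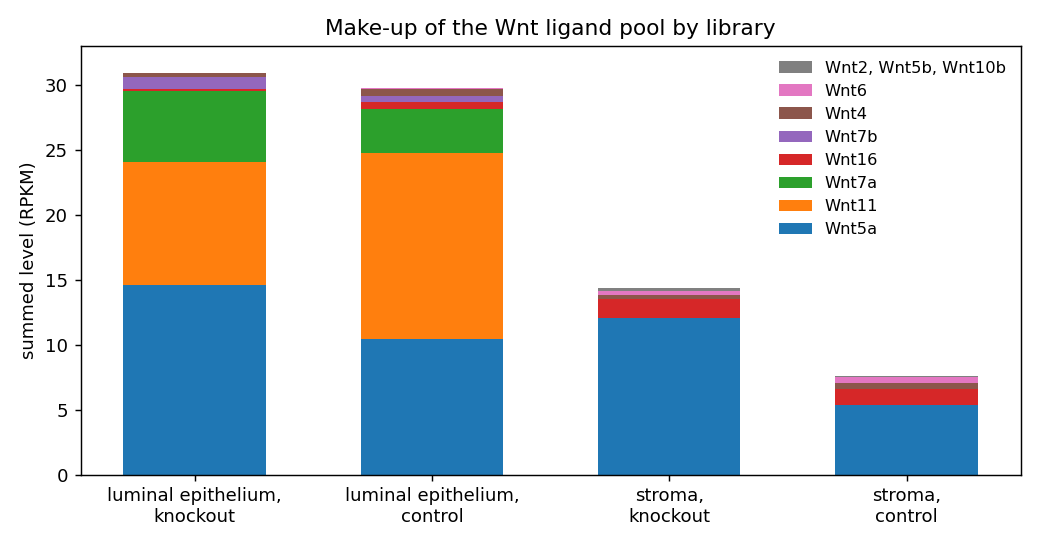
Stacked bars give the level in RPKM of each Wnt ligand in each of the 4 libraries, coloured by gene. Wnt11 and Wnt7a appear in the luminal epithelium bars, and Wnt5a is the main part of both stroma bars, at 84.1% in the knockout and 70.2% in the control.

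Levels between compartments come from 2 tables that appear to have been normalized separately and are given as such. Wnt5a (chromosome 14, 29318659 to 29338701, mm9) encodes a ligand that mostly acts without beta-catenin. Its level was 14.6 RPKM in knockout and 10.5 RPKM in control luminal epithelium. In stroma it was at 12.1 RPKM in the knockout and 5.34 RPKM in the control. The control stroma was thus the low library of the 4, and the other 3 lay within 10.5 to 14.6 RPKM. More than 94% of genes lay below Wnt5a in each library, from 94.7% in control stroma to 97.6% in knockout stroma. In stroma the ratio of knockout to control was 2.26, with counting limits of 2.09 and 2.45. In luminal epithelium that ratio was 1.40, with counting limits of 1.23 and 1.61. Counting limits are 95% Clopper-Pearson limits on estimated reads; they hold counting error alone, without any variation between mice.

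By a size rule, a gene was counted as different when log2((first + 1)/(second + 1)) of the RPKM was at least 1 in size and its mean over the pair at least 1 RPKM. In stroma 2 of the 10 ligands reached that mean, and 1, Wnt5a, was past the size rule as higher, at a log2 difference of 1.04. By the same rule 1.45% of 7723 kept genes were higher and 1.59% lower, shares that include small RNA and unnamed gene models. With these left out and the libraries rescaled, 35 of 7897 kept genes were higher and 53 lower. The Wnt5a difference sat at the edge of the rule. It was 0.98 after dividing by the upper quartile, 0.99 after rescaling without the 50 most abundant genes and 0.97 after subtracting the median difference of kept genes, which ended the call each time. The authors' deposited test, which compares 2 libraries and not the genotypes, gave Wnt5a in stroma a p-value of 0.341. It called none of the 10 ligands significant in either compartment. Over all genes it called only 94 in luminal epithelium and 5 in stroma, so a lack of calls among 10 ligands says little. Of 14 stromal markers, 10 were also higher in knockout stroma and 4 lower, with a median ratio of 1.55 and a range of 0.738 to 3.30. The 5 past the size rule were all collagen genes, Col1a1, Col1a2, Col6a1, Col6a2 and Col6a3. Pdgfra, Vim, Hand2 and Hoxa11 were the 4 lower ones. Leukocyte markers were lower there, 8 of 8 of them and 2 past the size rule, with sums of 47.7 RPKM in the knockout and 109 RPKM in the control. The part of these markers in the Wnt5a difference was not tested. Fewer cells of a type and less RNA per cell cannot be told apart in such captures. Within stroma, Wnt5a was at 8.51 times the level of Wnt16 in the knockout and 4.38 times in the control, values that no scaling can move.

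Wnt11 (chromosome 7, 105987355 to 106003257), known in mice for its part in kidney branching and for signalling without beta-catenin, was at 9.46 RPKM in knockout and 14.3 RPKM in control luminal epithelium. In stroma it stood at 0.0129 RPKM in the knockout and 0.00957 RPKM in the control, each close to the value of a single read. The epithelial level was thus high in both genotypes and the stromal level close to nothing. Between compartments the ratio was 734 in the knockout, with counting limits of 170 and 37514 and a lowest value of 474 under other scalings, and 1497 in the control, with counting limits of 179 and 40193 and a lowest value of 1043 under other scalings. General epithelial markers had median ratios of 1090 and 294 in the same comparisons. In luminal epithelium Wnt11 was 1.52-fold lower in the knockout, with counting limits of 1.27 and 1.79, and at most 1.804-fold lower over the scalings tried.

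Wnt7a (chromosome 6, 91313977 to 91361363), the epithelial ligand needed for normal patterning of the female tract in mice, was at 5.45 RPKM in knockout and 3.37 RPKM in control luminal epithelium. It was listed at 0 in both stroma libraries, where 3 estimated reads would have stood for 0.0160 RPKM in the knockout and 0.0227 RPKM in the control. The ratio of knockout to control in luminal epithelium was 1.62, with counting limits of 1.27 and 2.12. Rescaling left it above 1, the lowest value being 1.36. Its close relative Wnt7b (chromosome 15, 85365867 to 85424138), known in mice for lung and kidney development, had the same pattern at a lower level, 0.959 RPKM in knockout and 0.475 RPKM in control luminal epithelium, with a listing at 0 in both stroma libraries. The control value of Wnt7b rested on about 7 estimated reads, and the counting limits of its ratio of 2.02, at 0.974 and 5.14, reach 1.

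Set against each other inside the epithelial libraries, these ligands changed order. Wnt5a was the highest in the knockout, at 1.55 times the level of Wnt11, while in the control Wnt11 was the highest and Wnt5a stood at 0.730 times its level. The level of Wnt7a was 0.577 times that of Wnt11 in the knockout and 0.235 times in the control. The 95% Poisson limits on estimated reads, which also hold counting error alone, did not overlap between Wnt5a and Wnt11 in either library. They were 14.2 to 15.1 RPKM against 8.97 to 9.96 RPKM in the knockout, and 9.13 to 11.9 RPKM against 12.1 to 16.8 RPKM in the control. By the size rule, 0 of the 3 ligands with the needed mean differed between genotypes in luminal epithelium. Of 7736 kept genes 7.02% did, 5.03% as higher and 1.99% as lower. With small RNA and unnamed gene models left out and the libraries rescaled, 168 of 6545 kept genes were higher and 164 lower. The log2 differences of the 3 ligands were 0.45 for Wnt5a, 0.56 for Wnt7a and -0.55 for Wnt11, beside 5th and 95th percentiles of -0.60 and 1.0 over all kept genes.

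**Figure D2:**
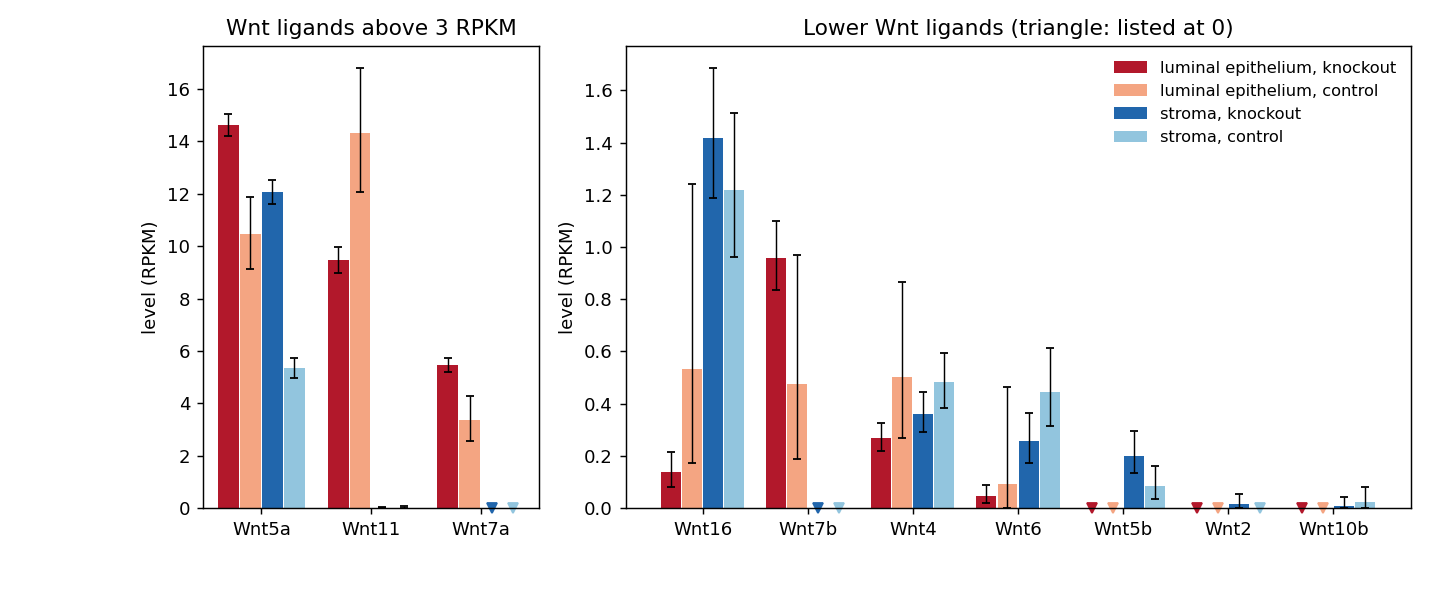
Bars give the RPKM of each Wnt ligand in the 4 libraries, with 95% Poisson limits on estimated reads as error bars and triangles for values listed at 0; the panels have different scales. Wnt5a is present in all 4 libraries, Wnt11 and Wnt7a stand in luminal epithelium, and Wnt16 reaches 1.42 RPKM in knockout stroma and 1.22 RPKM in control stroma.

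Wnt16 (chromosome 6, 22238227 to 22248522), known in mice for its part in cortical bone, was at 1.42 RPKM in knockout and 1.22 RPKM in control stroma. In luminal epithelium it was at 0.137 RPKM in the knockout and 0.534 RPKM in the control, the control value resting on about 5 estimated reads. The stromal libraries were thus close together and above both epithelial ones. The ratio of knockout to control was 1.16 in stroma, with counting limits of 0.877 and 1.57 that reach 1. In luminal epithelium Wnt16 was 3.89-fold lower in the knockout, with counting limits of 1.13 and 10.7. In that library 13 of 14 stromal markers were lower too, with a median ratio of 0.453, none of the 14 was at 0 in either epithelial library, and smooth muscle markers summed to 0.594 RPKM in the knockout and 4.95 RPKM in the control, 6 of 7 lower. Leukocyte markers summed to 2.56 RPKM in the knockout and 15.6 RPKM in the control, 6 of 8 lower and 2 of them past the size rule. The part of these markers in the Wnt16 difference was not tested.

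Wnt4 (chromosome 4, 136833550 to 136855416) was low in all 4 libraries. It was at 0.269 RPKM in knockout and 0.504 RPKM in control luminal epithelium, and at 0.361 RPKM in knockout and 0.482 RPKM in control stroma. Both knockout libraries were the lower of their pair, but the ratios of 0.534 and 0.750 had counting limits of 0.296 to 1.03 and 0.555 to 1.03, which reach 1. Wnt6 (chromosome 1, 74818466 to 74831893) was at 0.0473 RPKM in knockout and 0.0937 RPKM in control luminal epithelium, the control value resting on about 1 estimated read. In stroma it was higher, at 0.258 RPKM in the knockout and 0.445 RPKM in the control, a ratio of 0.580 (counting limits 0.341 and 0.951). Its neighbour Wnt10a, whose locus lies 6699 bases away on the same chromosome, was listed at 0 in knockout stroma and both epithelial libraries and at 0.0295 RPKM in control stroma.

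The remaining 3 ligands were listed at 0 in luminal epithelium of both genotypes. Wnt5b (chromosome 6, 119382549 to 119494365), a close relative of Wnt5a, was at 0.201 RPKM in knockout and 0.0864 RPKM in control stroma, a ratio of 2.33 (counting limits 1.10 and 6.26). Its locus overlaps Fbxl14, at 0.934 and 0.827 RPKM in the same libraries, and the labels do not say how reads were divided between overlapping genes. Wnt2 (chromosome 6, 17938940 to 17980445), known in mice for lung and placental development, was at 0.0165 RPKM in knockout stroma and listed at 0 in control stroma. Wnt10b (chromosome 15, 98602183 to 98608581), known for promoting bone and restraining fat formation, was at 0.00826 and 0.0248 RPKM in knockout and control stroma. The values of Wnt2 and Wnt10b rest on about 1 to 2 estimated reads, so no difference in them was detectable at this depth. At 3 reads, Wnt5b would have stood at 0.0147 RPKM in knockout and 0.215 RPKM in control luminal epithelium, so only the knockout library had the depth to show a level like that of stroma. A listing at 0 was not taken as absence, since Rpl26, a ribosomal protein gene every cell uses, had that value in both controls.

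**Figure D3:**
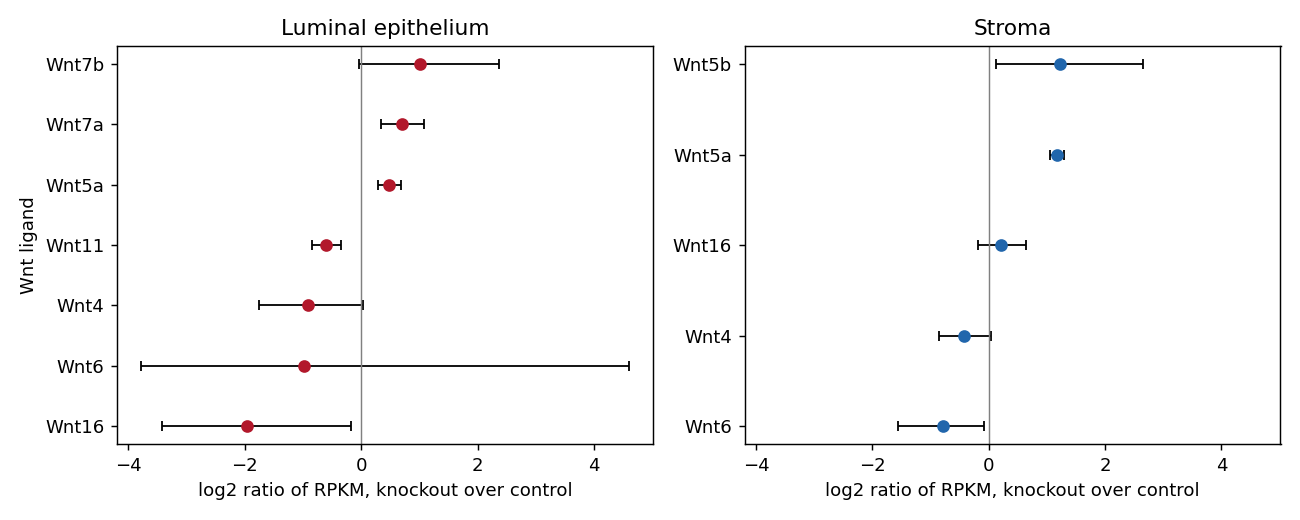
Points give the log2 ratio of RPKM, knockout over control, for Wnt ligands above 0 in both libraries and with at least 3 estimated reads in at least 1, and bars give 95% counting limits. Wnt5a lies above 0 in both compartments and Wnt11 below 0 in luminal epithelium. The limits of Wnt7b, Wnt6 and Wnt4 reach 0 in luminal epithelium, and those of Wnt4 and Wnt16 in stroma.

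Set between compartments, 2 of the 10 ligands were past the size rule as higher in luminal epithelium in the knockout and 2 in the control, Wnt11 and Wnt7a each time, of 3 that reached the mean. None was past it as lower. The same rule counted 20.7% of 8350 kept genes as higher and 10.7% as lower in the knockout, and 19.6% of 8030 as higher and 12.1% as lower in the control. With small RNA and unnamed gene models left out, it counted 906 of 7562 as higher and 1215 as lower in the knockout. In the control it then counted 1009 of 7705 as higher and 1206 as lower. Wnt5a was 1.21 times as high in luminal epithelium as in stroma in the knockout and 1.96 times in the control, and the first of these turned to 0.784 to 0.974 under other scalings. Stromal markers had median ratios between compartments of 0.0119 in the knockout and 0.0480 in the control, the highest being 0.360 and 0.319. The Wnt5a ratios lay above every one of these. Wnt16 stood at 0.0970 in the knockout, with a lowest value of 0.0626 under other scalings, and 0.438 in the control, Wnt6 at 0.183 in the knockout, with a lowest value of 0.118 under other scalings, and 0.210 in the control, and Wnt4 at 0.745 and 1.05. Wnt4 was lower in luminal epithelium under every other scaling, at 0.481 to 0.597 in the knockout and 0.728 to 0.882 in the control, and its ratio of 0.745 in the knockout had counting limits of 0.554 and 0.997. The control ratios of Wnt16, Wnt6 and Wnt4 had counting limits that reach 1. The part of stromal marker levels in the epithelial values of Wnt16, Wnt6 and Wnt4 was not tested.

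**Figure D4:**
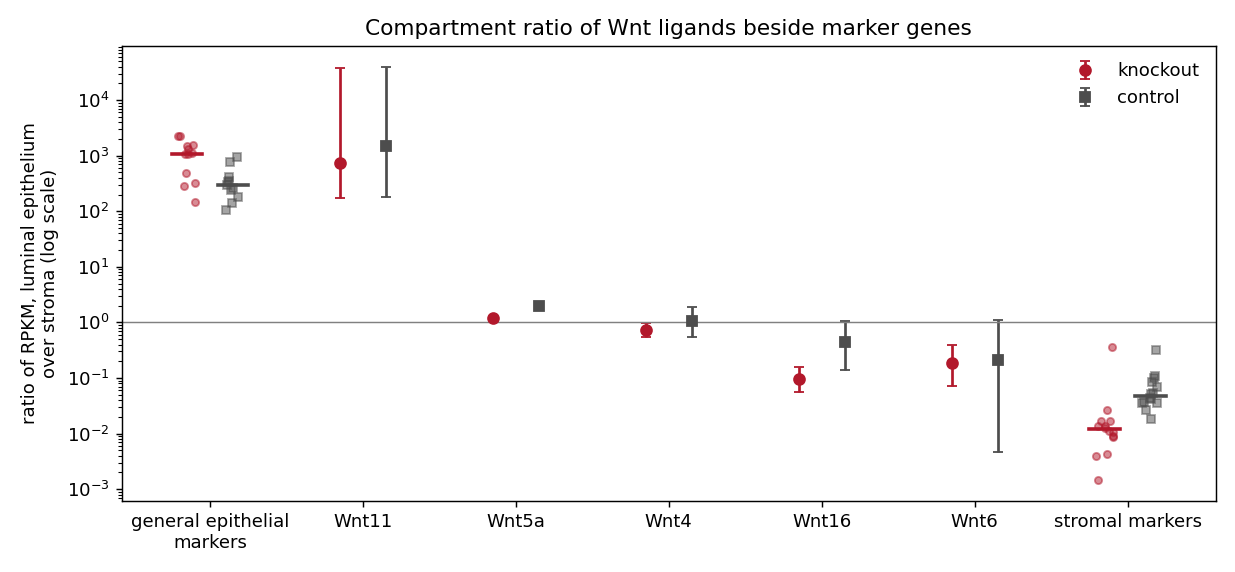
Points give the ratio of RPKM, luminal epithelium over stroma, on a log scale, for 5 Wnt ligands with counting limits and for each marker gene, with bars at marker medians. Wnt11 lies within the range of the epithelial markers in the knockout, 146 to 2302, and above it in the control, 107 to 939, Wnt5a lies at 1.21 in the knockout and 1.96 in the control, Wnt4 at 0.745 in the knockout and 1.05 in the control, and Wnt16 and Wnt6 lie between Wnt4 and the median of the stromal markers.

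The 9 other ligands added 0.476% to the sum over all Wnt ligands in knockout and 0.163% in control luminal epithelium, and 3.69% in knockout and 5.17% in control stroma. Wnt9a was the highest of them, at 0.391 RPKM in knockout and 0.275 RPKM in control stroma. Wnt2b was at 0.144 RPKM in knockout and 0.0484 RPKM in control luminal epithelium, and at 0.141 RPKM in knockout and 0.0782 RPKM in control stroma. None of the 9 reached a mean of 1 RPKM, and Wnt1, Wnt3a, Wnt8a and Wnt9b were listed at 0 in all 4 libraries.

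Other genes of the pathway were taken from 6 lists with 75 genes. In luminal epithelium 31 reached the mean, 1 was past the size rule as higher and none as lower, where 5.03% of all kept genes were higher and 1.99% lower, with a median log2 difference of 0.04 beside 0.10 over all kept genes. In stroma 34 reached the mean and none was past the rule, where 3.04% of all kept genes were, and the median was 0.05 beside 0.07. These shares include small RNA and unnamed gene models. With those left out, 168 of 6545 kept genes were higher and 164 lower in luminal epithelium, and 35 and 53 of 7897 in stroma. The 1 pathway gene past the rule was Fzd4, a Frizzled receptor, at 5.91 RPKM in knockout and 0.0501 RPKM in control luminal epithelium. The control value of Fzd4 rested on about 2 estimated reads, and its ratio of 118 had counting limits of 34.2 and 1022. Porcn, the enzyme that attaches a fatty acid to Wnt ligands before they are secreted, was at 16.5 RPKM in knockout and 8.13 RPKM in control luminal epithelium, a ratio of 2.03 (counting limits 1.63 and 2.53), and a log2 difference of 0.94 that missed the rule. Prickle1, a protein of planar cell polarity, was at 0.459 RPKM in knockout and 1.90 RPKM in control luminal epithelium, with a log2 difference of -0.99 that missed it as well. Both would have passed with a pseudocount of 0.1 RPKM, which raised the count of pathway genes to 3. That pseudocount also raised the calls over all 7736 kept genes of luminal epithelium, from 389 higher and 154 lower to 640 and 279. Axin2, from the list of nuclear factors and target genes, was at 1.68 RPKM in knockout and 0.109 RPKM in control luminal epithelium. Its mean fell short of 1 RPKM and its control value came from the shallow library, and it passed the size rule with no minimum. In stroma the antagonist Dkk3 was at 3.34 RPKM in the knockout and 2.22 RPKM in the control, and Apcdd1, an inhibitor of Wnt signals at the cell surface, at 3.41 and 5.31 RPKM. No secreted antagonist of 12 listed reached the mean in luminal epithelium.

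Genes with the most similar pattern were sought for the 3 ligands that reached 5 RPKM, as the smallest Euclidean distance between log2(RPKM + 1) values centred over the 4 libraries, among 7532 named genes. For Wnt5a these were Thbs1, a matrix glycoprotein, at a distance of 0.20, and Serpine2, a protease inhibitor, at 0.31. Thbs1 stood at 7.40 and 6.36 RPKM in knockout and control luminal epithelium and at 7.16 and 2.96 RPKM in knockout and control stroma. For Wnt7a they were Mal2, a protein of apical membrane traffic, at 0.06, and the mitochondrial carbonic anhydrase gene Car5b at 0.10. For Wnt11 they were Etnk1, an ethanolamine kinase, at 0.16, and the carboxylesterase gene Ces1d at 0.20. With 4 points many genes lie close, 44, 130 and 28 of them within 0.5 of Wnt5a, Wnt7a and Wnt11.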

How the data were processed

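RNA was captured by laser microdissection, extracted with the PicoPure kit and made into stranded total RNA libraries after ribosomal depletion, per the labels' protocols. The deposited values are RPKM, 1 column for each library and 1 table for each compartment, computed by the authors per the file headers. Build mm9, Cufflinks 2.0.2, TopHat2 2.0.5, TopHat and CASAVA 1.8.2 are named in the submitters' processing notes, without roles or settings, and whether counting used strand is not given in the sources used here. A p-value, a q-value and a log2 fold change were deposited for the 2 libraries of each compartment, per the file headers, and of these the p-value and the authors' call of significance were used. The tables appear to have been normalized separately.

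Differences were taken on the log2(RPKM + 1) scale, with a pseudocount of 1 RPKM that understates low genes, and ratios from RPKM without it. With 1 library per group there was no test. Reads were estimated from the step at which low RPKM, multiplied by the transcript length less 200 bases, pile up at whole numbers. Between 62.7% and 65.6% of low values lay within 0.2 of a whole number, the values that also set the step, so depths are approximate. Lengths came from GENCODE vM21 by RefSeq identifier, the shortest where several matched. Loci are mm9 with starts raised by 1, because 7152 of 20601 spans equalled a RefSeq gene length when counted from 0 and 452 when counted from 1. Members, lists and the rules for named genes (the ligands, up to 2 genes of each pathway list in each compartment, and the 2 genes nearest in pattern) were chosen with earlier results of these data known. Axin2 was named outside these rules, because it passed the size rule with no minimum of expression. Start regions are from RefSeq, GRCm38.p6. Alternatives changed the pseudocount, scaling, minimum and gene models. Steps were tested on simulated data, with scipy 1.17.1, numpy 2.4.6, matplotlib 3.10.9, pandas 2.3.3 and Python 3.11.15.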

Additional observations from a re-analysis of the deposited data

Results flagged for a closer look

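Wnt16 was lower in the knockout in luminal epithelium, at 0.137 RPKM against 0.534 RPKM in the control, and higher in the knockout in stroma, at 1.42 RPKM against 1.22 RPKM in the control. The opposite directions drew attention to it. The counting limits of its stromal ratio, 0.877 and 1.57, reach 1, so its direction in stroma is not settled. Its epithelial control value rests on about 5 estimated reads. The Wnt16 log2 difference in luminal epithelium minus that in stroma was -0.55, and -1.62 with a pseudocount of 0.1 RPKM. Among 8338 genes that averaged 1 RPKM or higher, a set without Wnt16, the 5th and 95th percentiles were -0.71 and 1.02. Wnt5a at -0.59, Wnt11 at -0.56 and Wnt7a at 0.56 were of similar size to Wnt16. Fzd4 also went opposite ways, at 5.91 RPKM in the knockout against 0.0501 RPKM in the control in luminal epithelium, and at 0.933 RPKM in the knockout against 1.19 RPKM in the control in stroma, and its log2 difference in luminal epithelium minus that in stroma was 2.90. The differences between compartments of Wnt16 and Fzd4 were not tested, because each compartment has 1 library of each genotype.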

How the results depend on the processing

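The count of Wnt ligands past the size rule between genotypes in luminal epithelium was 0 under all 8 alternatives. In stroma it was 1, and 0 after dividing by the upper quartile, after rescaling without the 50 most abundant genes and after subtracting the median difference. Between compartments it was 2, and with a minimum mean of 5 RPKM it was 0 in the knockout and 1 in the control, because fewer ligands were kept, while with no minimum it was 3 in the knockout, Wnt16 passing as lower in luminal epithelium. The count of pathway genes past the rule, 1 over both compartments, was 3 with a pseudocount of 0.1 RPKM and 0 with the minimum of 5 RPKM. Calls over all kept genes of luminal epithelium rose with that pseudocount too, from 389 higher and 154 lower to 640 and 279 of 7736. The pathway count was 2 with a pseudocount of 0.5 RPKM, without the 50 most abundant genes and with the median subtracted. It was also 2 with no minimum and without small RNA and unnamed models. Where it was 2, the added gene was Axin2 with no minimum and Prickle1 otherwise. Dividing by the upper quartile gave summed ligand levels of 24.98 and 26.3 RPKM in knockout and control luminal epithelium and 17.0 and 9.66 RPKM in knockout and control stroma, and leaving out the 50 most abundant genes gave 25.5 RPKM in knockout luminal epithelium and 15.8 and 8.82 RPKM in knockout and control stroma. Between compartments dividing by the upper quartile moved the median log2 difference of kept genes by -0.38 in the knockout and -0.36 in the control. Of 320 ligand differences recomputed, 313 stayed on their side of the rule, 6 were no longer called, 1 became called, and no called ligand changed sign. Most of the 320 belong to ligands below the mean of 1 RPKM, which could hardly be called, so the 313 is no measure of stability. The shallow epithelial control limits what can be said of Wnt16, Wnt7b, Wnt6 and Wnt4 there, and of Wnt2, Wnt5b and Wnt10b, listed at 0. No paired analysis was possible because each group has 1 library.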
